A study of Ogataea parapolymorpha with 8 samples.

Results

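The mitochondrial carrier family was examined in the yeast Ogataea parapolymorpha, as 29 of the 5428 genes in the deposited count table. A gene was taken as a member when the deposited annotation gave its transcript the carrier domain PF00153, which 31 genes have. The 2 genes whose closest Saccharomyces cerevisiae homolog is CRC1 (carnitine) or SFC1 (succinate and fumarate) were set aside. Carriers of this family sit in the inner mitochondrial membrane, are built from repeats of the same domain, and exchange or import one kind of solute each: nucleotides, phosphate, organic acids, amino acids, cofactors or metal ions. The ADP/ATP carrier and the phosphate carrier feed ATP synthase and export its product, while exchangers such as the aspartate and glutamate carrier form part of shuttles that move reducing equivalents between the cytosol and the matrix.

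RNA was sequenced from bioreactor cultures in 8 libraries, 2 for each of 4 groups. The mutant strain IMX2167, with the genotype gut2Δ ndi/ndeΔ, lacks by its label the mitochondrial glycerol-3-phosphate dehydrogenase gene GUT2 and type II NADH dehydrogenase genes. Its cultures were aerobic, in SM medium with 7.5 g/L glucose. One mutant group was a batch culture at pH 6, and the other a chemostat at pH 5, diluted at 0.1 per h. Strain CBS11895 served as the wild type and was kept in chemostats (0.1 per h, pH 6) in SM urea medium with pluronic acid as antifoam and 10 mg/L ergosterol. The group labelled micro-aerobic was fed glucose at 20 g/L with Tween 80, an oleate source, at 420 mg/L. For the group labelled aerobic these were 7.5 g/L and 84 mg/L. The study's title concerns how the reoxidation of cytosolic NADH contributes to the oxygen requirement of this yeast, and all groups other than the micro-aerobic one were labelled aerobic. Glucose, Tween 80 and the oxygen label change together between the wild-type groups, and strain, medium, additives and, for the chemostats, pH change together between mutant and wild type, so their effects cannot be told apart.

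The libraries held 6104949 to 11126081 counts in genes, and levels are given in CPM, counts scaled to library size with TMM factors. GUT2 had 111 and 94.8 CPM in batch libraries of the mutant, 29.8 and 27.3 in its chemostat libraries, 357 and 339.5 in the libraries labelled micro-aerobic and 393 and 381 in those labelled aerobic. Of the type II NADH dehydrogenase genes only NDE1 was looked up. NDE1 had 5.34 and 4.55, 0.492 and 0.531, 57.7 and 49.7 and 66.4 and 72.1 CPM in the same order. Both were lower in all 4 mutant libraries than in any wild-type library, and neither was at 0 in the mutant. HEM13 and ERG11 are heme and sterol genes that rise with low oxygen in S. cerevisiae. HEM13 had 128 and 138 CPM in mutant batch and 88.6 and 84.5 in mutant chemostat libraries. In the wild type it had 61.3 and 56.4 CPM under the micro-aerobic label and 1202 and 1095 under the aerobic label. ERG11 had 432 and 388, 240 and 253, 293 and 291 and 11161 and 12406 CPM in the same order. Both were lower in all 4 mutant libraries, also labelled aerobic, than in either wild-type library labelled aerobic, and the cause was not tested. Within the wild type, HEM13 and ERG11 were 4.29 and 5.34 log2 units lower in the libraries labelled micro-aerobic than in those labelled aerobic. Because this runs opposite to what the labels would give by the S. cerevisiae pattern, both wild-type groups are called by their labels, and each direction between them holds for the labels only. In bulk RNA, fewer cells with a transcript and less of it per cell cannot be told apart.

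Of the 29 members, 24 have a homolog in S. cerevisiae in the deposited tables and are called by its name, which does not settle which paralog a gene is. By role, 9 carry nucleotides, cofactors or thiamine pyrophosphate, 2 phosphate, 4 di- and tricarboxylates, 5 amino acids or S-adenosylmethionine, and 3 metals. The remaining 6 are YFR045W and 5 members without a homolog. Their predicted proteins ran to 198 to 725 residues with a median of 302, and 25 of the 29 fell between 270 and 370. The longest were AGC1, the aspartate and glutamate carrier, with 725 residues, and SAL1, the calcium-regulated ATP-Mg/phosphate carrier, with 507. SAL1 is the only member with a second Pfam domain in the annotation, PF13833, an EF-hand pair of the kind that binds calcium. The genes were compact: 27 had a single exon and 2, ORT1 and OPAR_004832, had an intron. They lay on all 7 chromosomes, 8 of them on chromosome 4, with 13 on the plus and 16 on the minus strand. For 21 members the annotation names only a hypothetical protein, and for CTP1, the citrate carrier homolog, its product name is that of an endonuclease.

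OPAR_003040, the shortest member, lies wholly within OPAR_003037 on the opposite strand and had 0 counts in every library. It was not tested, and counting without strand gives no count to a gene whose every read also falls in another gene. The other 28 members were tested, each with at least 27 counts in every library. OPAR_002024 (chromosome 4, positions 94036 to 95064, plus strand) and ORT1 (OPAR_002025, chromosome 4, positions 95133 to 95952, minus strand) are neighbours with their 3′ ends 68 bases apart. Since strand was not used in counting, reads running past one end would add to the other gene, and this was not tested.

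The summed level of the carriers separated 1 group from the rest. For the mutant it was 8240 and 8450 CPM in batch and 7539 and 7188 CPM in chemostat, and it was 8234 and 7859 in the libraries labelled micro-aerobic, against 3894 and 3532 in those labelled aerobic. All 6 libraries of the first 3 groups lay above both libraries labelled aerobic. As a share of all counts in genes the family took 0.779% to 0.868% in those 6 libraries and 0.334% and 0.332% in the libraries labelled aerobic.

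The ADP/ATP carrier, which exchanges matrix ATP for cytosolic ADP, gave the largest part of this level. AAC3 (OPAR_004676, chromosome 7, positions 266600 to 267505, minus strand) is the one member matched to that role, and the S. cerevisiae gene of this name is the isoform expressed when oxygen is low. Per kilobase of gene it reached 4064 and 4201 CPM in batch and 4092 and 3779 in chemostat for the mutant, and 4513 and 4282 in the libraries labelled micro-aerobic, against 1184 and 967 in those labelled aerobic. It was the highest carrier per kilobase in all 8 libraries. It stood above 99.2%, 99.6%, 99.6% and 96.4% of all tested genes per kilobase in the mutant batch, the mutant chemostat, and the groups labelled micro-aerobic and aerobic. MIR1, the phosphate carrier, and ODC2, the oxodicarboxylate carrier, came next in the first 3 groups, and ODC2 and OPAR_004832 in the libraries labelled aerobic. The 3 leading carriers made up 72.5% to 76.0% of the carrier level per kilobase in the first 6 libraries and 57.9% and 54.5% in those labelled aerobic.

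**Figure D1:**
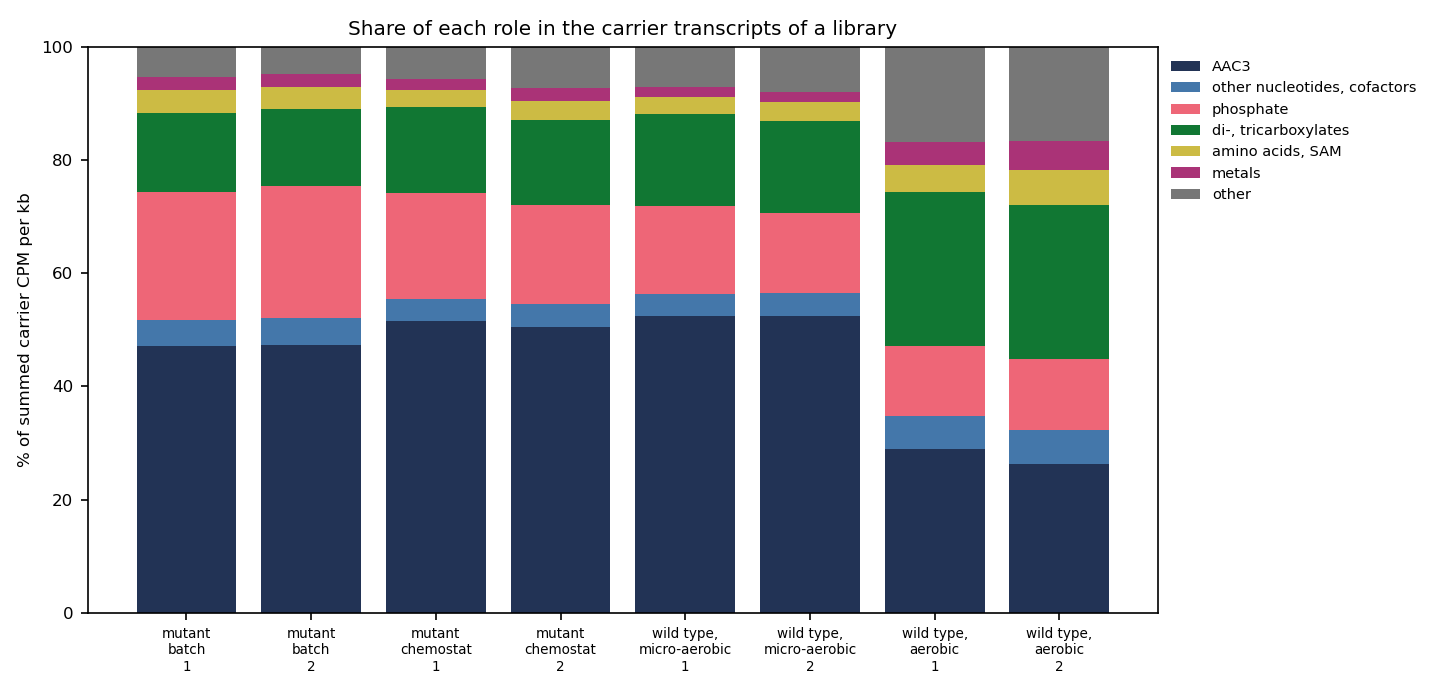
Share of each role in the summed carrier CPM per kilobase (vertical axis, percent) in each of the 8 libraries (horizontal axis), with AAC3 drawn apart from the other nucleotide and cofactor carriers. AAC3 takes 47.1% to 52.5% of the bar in the 6 libraries on the left and 28.9% and 26.3% in the 2 libraries labelled aerobic on the right.

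Across the 4 groups, 23 of the 28 tested carriers differed in edgeR's quasi-likelihood F test at an adjusted p below 0.05, beside 78.8% of all tested genes. The ratio of the highest to the lowest group mean had a median of 2.17 over the carriers and 1.83 over all genes tested. It was largest for OPAR_002024, a carrier with no assigned substrate, at 7.36, then MIR1 at 4.92, the thiamine pyrophosphate carrier TPC1 at 4.49, the oxaloacetate carrier OAC1 at 4.12 and AAC3 at 4.09. For 17 of the 28 the lowest group mean was that of the libraries labelled aerobic, and for 14 the highest was that of the mutant batch. The same counts were not made over all genes tested, so neither can be read as a trait of carriers.

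**Figure D2:**
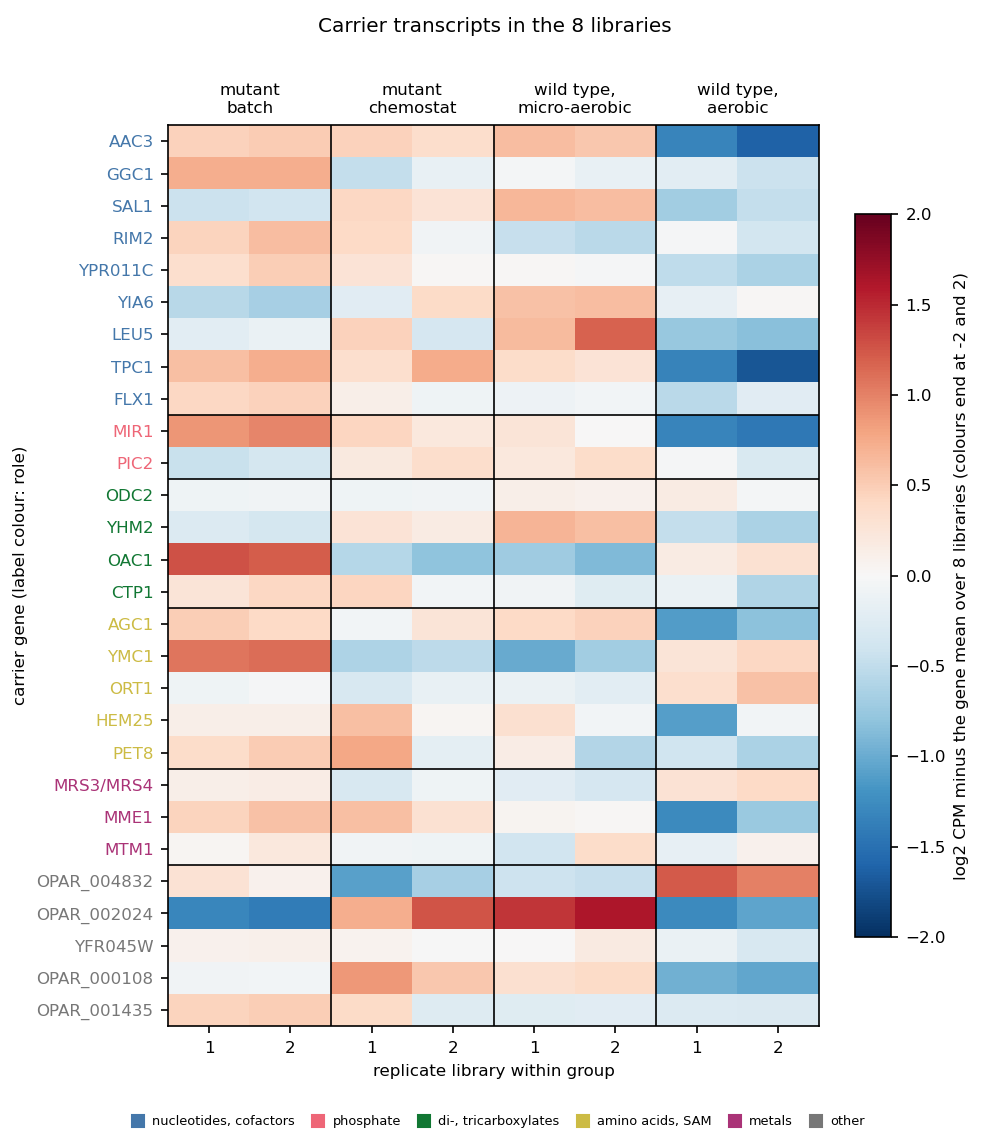
Each cell is the log2 CPM of a carrier gene (rows, grouped by role) in a library (columns), minus the mean of that gene over the 8 libraries. Red cells lie above the gene's own mean and blue cells below it. AAC3, MIR1, TPC1 and AGC1 are blue in the 2 libraries labelled aerobic, while OAC1 and YMC1 are reddest in the 2 mutant batch libraries.

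The 5 carriers that did not pass the 4-group test were PET8, the S-adenosylmethionine carrier (adjusted p = 0.0582), YFR045W (0.136), the glycine carrier HEM25 (0.14), ODC2 (0.407) and MTM1, a carrier tied to manganese handling (0.83). ODC2 was both abundant and narrow in range. Its 8 values ran between 489 and 584 CPM, with 489 and 495 in batch and 492 and 494 in chemostat for the mutant, 563 and 549.9 in the libraries labelled micro-aerobic and 584 and 509 in those labelled aerobic. Its 4 log2 differences lay between -0.17 and 0.03, each with an SE of 0.13, so a change of this size would not be resolved here. PET8, HEM25 and MTM1 were low, below 25 CPM in every library.

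The first comparison set the wild-type chemostats labelled micro-aerobic against those labelled aerobic. The carriers of adenine nucleotides, phosphate, thiamine pyrophosphate and coenzyme A and the aspartate and glutamate carrier were higher under the micro-aerobic label, while the oxaloacetate carrier and the iron, ornithine and YMC1 carriers were lower. Of the 28 carriers, 13 rose and 5 fell at an adjusted p below 0.05, while 23.2% of all tested genes rose and 22.3% fell. The 18 called carriers thus stand beside 45.5% of all tested genes called. At a change of at least 2-fold, 10 carriers rose and 3 fell, beside 8.95% and 7.86% of all genes. The median log2 change was 0.40 over the carriers and 0.02 over all genes.

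Of the 9 nucleotide and cofactor carriers 6 rose and none fell by this test. AAC3 had 4089 and 3879.8 CPM in the libraries labelled micro-aerobic and 1072 and 877 CPM in those labelled aerobic. The groups did not overlap, and the log2 change was 2.03 ± 0.15 (adjusted p = 9.76e-08), with 2 libraries per group here as throughout. TPC1, which brings thiamine pyrophosphate into the matrix, had 17.9 and 16.8 CPM under the micro-aerobic label and 5.53 and 4.26 CPM under the aerobic label, a log2 change of 1.83 ± 0.27 (adjusted p = 8.62e-05). LEU5, needed for coenzyme A in the matrix, had 30.8 and 45.0 CPM and 11.8 and 11.2 CPM in the same order and changed by 1.72 ± 0.28 (adjusted p = 2.39e-04). For both genes every library labelled micro-aerobic lay above every library labelled aerobic, a condition of their choice. SAL1 rose by 1.22 ± 0.15 (adjusted p = 1.62e-05), with 92.8 and 90.2 CPM against 36.2 and 42.3 CPM. The NAD+ carrier YIA6 had 34.1 and 35.0 CPM under the micro-aerobic label and 20.2 and 23.0 CPM under the aerobic label, and YPR011C, the carrier of adenosine phosphosulfates, 32.4 and 31.5 CPM and 22.5 and 20.5 CPM. These 2 changes were smaller, at 0.67 ± 0.23 (adjusted p = 0.0261) and 0.57 ± 0.19 (adjusted p = 0.0228). GGC1 for guanine nucleotides (0.23), RIM2 for pyrimidine nucleotides (-0.31) and FLX1 for FAD (0.30) did not pass the test.

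Both phosphate carriers rose. MIR1 (OPAR_000562, chromosome 1, positions 910069 to 911001, minus strand) had 1129 and 949 CPM in the libraries labelled micro-aerobic and 378 and 352 CPM in those labelled aerobic. Its groups were far apart and its log2 change was 1.51 ± 0.15 (adjusted p = 1.71e-06). PIC2, which in S. cerevisiae also carries copper, had 106 and 118 CPM under the micro-aerobic label and 89.8 and 73.5 CPM under the aerobic label, a change of 0.46 ± 0.14 (adjusted p = 0.0195).

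The 4 di- and tricarboxylate carriers went different ways. YHM2, the exchanger of citrate and oxoglutarate, rose by 1.19 ± 0.13 (adjusted p = 4.98e-06), with 564 and 532 CPM under the micro-aerobic label and 252 and 227 CPM under the aerobic label. OAC1 (OPAR_001810, chromosome 3, positions 1033715 to 1034542, plus strand), which carries oxaloacetate and the leucine precursor isopropylmalate, had 49.6 and 43.8 CPM against 91.3 and 101 CPM. It fell by this comparison with a log2 change of -1.04 ± 0.14 (adjusted p = 5.50e-05), again without overlap. CTP1 (0.20) and ODC2 (0.03) did not pass.

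Among the amino acid carriers AGC1 (OPAR_002415, chromosome 4, positions 750864 to 753470, plus strand) rose, with 449 and 468 CPM in the libraries labelled micro-aerobic and 158 and 193 CPM in those labelled aerobic and a log2 change of 1.39 ± 0.15 (adjusted p = 4.73e-06). YMC1 and the ornithine carrier ORT1 fell. YMC1 had 21.1 and 26.4 CPM under the micro-aerobic label and 50.9 and 56.5 CPM under the aerobic label (-1.18 ± 0.17, adjusted p = 7.48e-05), and ORT1 changed by -0.64 ± 0.17 (adjusted p = 0.00762). HEM25 (0.60) and PET8 (0.34) did not pass, but HEM25 passed at 1.23 (adjusted p = 0.0176) without replicate 2 of the aerobic label. Of the metal carriers, the magnesium exporter MME1 rose by 1.01 ± 0.21 (adjusted p = 0.00136) and MRS3/MRS4, the mitochondrial iron carrier, fell, with a log2 change of -0.62 ± 0.13 (adjusted p = 0.00186).

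Carriers without a known substrate gave both the largest rise and the largest fall of the family in this comparison. OPAR_002024 had 318 and 360.1 CPM in the libraries labelled micro-aerobic and 48.8 and 57.0 CPM in those labelled aerobic, a log2 change of 2.68 ± 0.18 (adjusted p = 3.63e-08). OPAR_004832 (chromosome 7, positions 554515 to 555455, plus strand) went the other way, with 163 and 157 CPM under the micro-aerobic label and 507 and 437 CPM under the aerobic label (-1.56 ± 0.16, adjusted p = 2.77e-06). OPAR_000108 had 27.0 and 28.3 CPM and 11.1 and 10.6 CPM in the same order and rose by 1.35 ± 0.21 (adjusted p = 1.60e-04). In none of the 3 did the groups overlap, which was a condition of their choice. OPAR_002024 rose while its neighbour ORT1 fell.

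The calls of PIC2, YIA6, YPR011C and ORT1 were lost in some fits without 1 library of a compared group. Such fits leave 1 library in that group, so a lost call does not by itself show a changed estimate. With all libraries the log2 changes were 0.46, 0.67, 0.57 and -0.64 in this order. PIC2 was at 0.53, 0.38 and 0.30 (adjusted p = 0.0503, 0.143 and 0.127) without replicate 1 or 2 of the micro-aerobic label or replicate 2 of the aerobic label. YPR011C was at 0.55, 0.59 and 0.49 (adjusted p = 0.107, 0.0799 and 0.0797) without the same libraries. YIA6 was at 0.69 and 0.66 (adjusted p = 0.0912 and 0.103) without either library of the micro-aerobic label and at 0.60 (0.111) without replicate 1 of the aerobic label. ORT1 was at -0.61 (adjusted p = 0.0631) without replicate 2 of the micro-aerobic label. YFR045W, not called, passed at 0.42 with upper quartile scaling (adjusted p = 0.0229) and at 0.44 without replicate 1 of the aerobic label (0.0418).

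**Figure D3:**
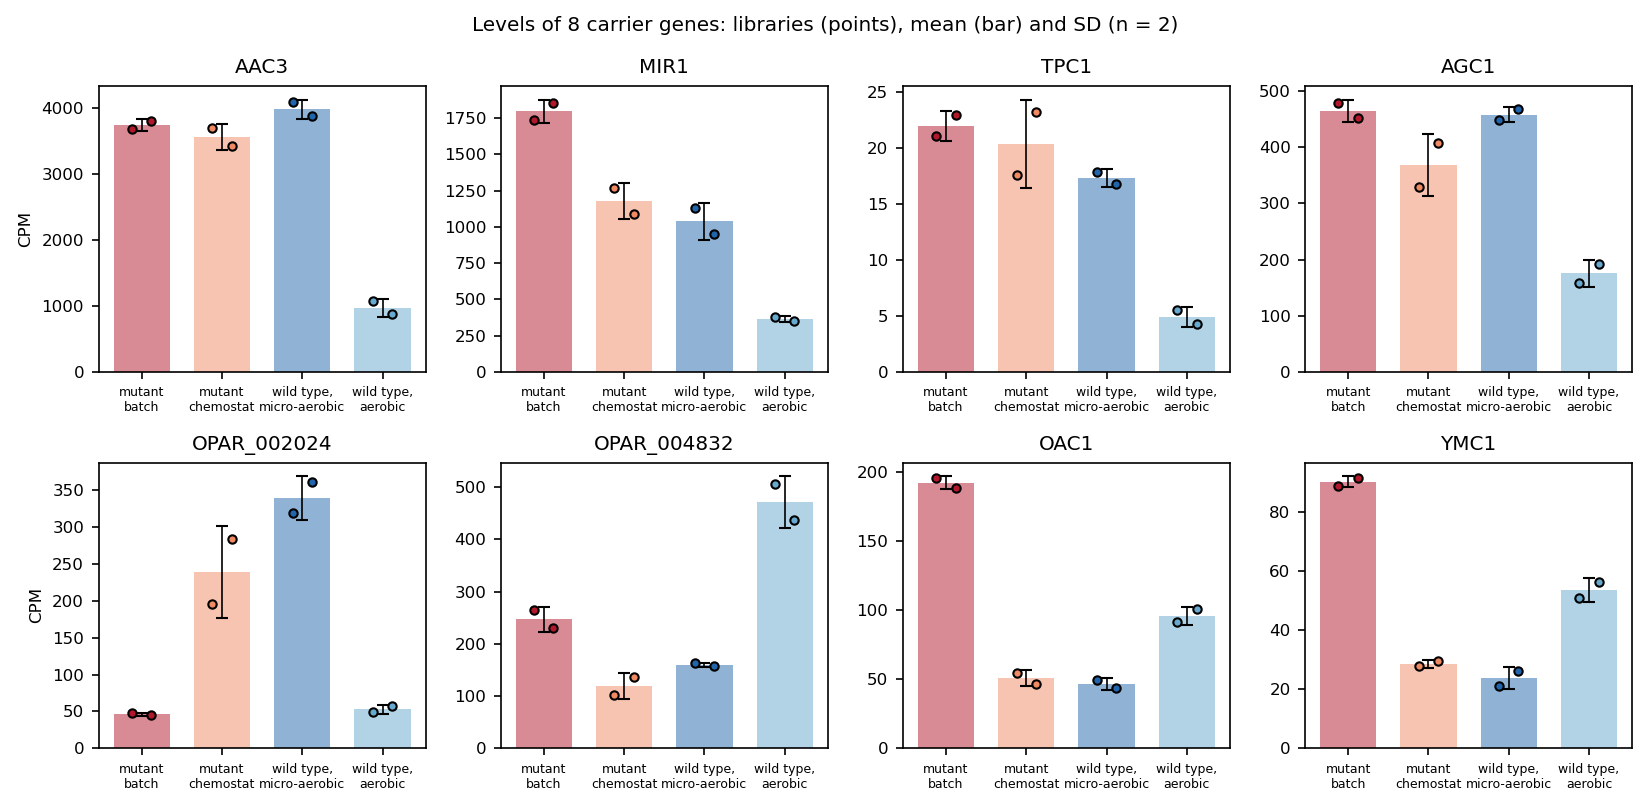
CPM (vertical axes, linear from 0, own scale per gene) of 8 carriers in the 4 groups, with points for libraries, bars for means and whiskers for the SD (n = 2). AAC3, MIR1, TPC1 and AGC1 are lowest under the aerobic label, OPAR_002024 is low there and in the mutant batch, OPAR_004832 is highest under the aerobic label, and OAC1 and YMC1 are highest in the mutant batch.

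The second comparison set the mutant in batch against the same mutant in chemostat, both aerobic on 7.5 g/L glucose. OAC1, YMC1, GGC1, OPAR_004832, MIR1 and MRS3/MRS4 were higher in batch, and OPAR_002024, OPAR_000108, SAL1, YIA6, PIC2 and YHM2 were lower, while the ADP/ATP carrier showed no change that passed the test. That makes 6 of 28 carriers that rose and 6 that fell, beside 24.5% and 26.8% of all tested genes, or 12 called carriers beside 51.4% of genes. The median log2 change was 0.12 over the carriers and -0.02 over all genes. At 2-fold or more 4 carriers rose and 1 fell, beside 6.93% and 10.4% of all genes.

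OAC1 had 196 and 189 CPM in the batch libraries and 54.7 and 46.5 CPM in the chemostat libraries. It rose 3.8-fold, a log2 change of 1.93 ± 0.14 (adjusted p = 1.07e-07), and was the largest rise of the family in batch. YMC1 had 89.1 and 91.7 CPM in batch and 27.7 and 29.5 CPM in chemostat, a change of 1.66 ± 0.16 (adjusted p = 1.78e-06). OAC1 and YMC1 also shared their place in the wild type, where both were lower under the micro-aerobic label.

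GGC1, which exchanges GTP for GDP, had 186 and 187 CPM in batch and 81.2 and 101 CPM in chemostat, without overlap, and rose by 1.03 ± 0.14 (adjusted p = 5.22e-05). OPAR_004832 had 264 and 229.9 CPM in batch and 102 and 137 CPM in chemostat (1.05 ± 0.16, adjusted p = 1.06e-04). MIR1 had 1739.6 and 1855 CPM in batch and 1266 and 1092 CPM in chemostat, a smaller change of 0.61 ± 0.14 (adjusted p = 0.00318). All 3 were higher in both batch libraries than in either chemostat library, for GGC1 and OPAR_004832 a condition of their choice. MRS3/MRS4 changed by 0.33 ± 0.13 (adjusted p = 0.0487), close to the threshold.

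OPAR_002024 had 47.5 and 44.7 CPM in batch and 195 and 283 CPM in chemostat. With a log2 change of -2.38 ± 0.18 (adjusted p = 1.44e-07) it had the largest change of any carrier between these groups, although its chemostat libraries lay well apart from each other. OPAR_000108 had 20.6 and 20.9 CPM in batch against 39.6 and 31.5 CPM in chemostat, and changed by -0.78 ± 0.19 (adjusted p = 0.0036). SAL1 had 43.4 and 45.0 CPM in batch and 78.1 and 70.8 CPM in chemostat (-0.75 ± 0.14, adjusted p = 6.70e-04).

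YIA6 fell in batch, with 15.6 and 14.3 CPM there and 19.4 and 29.8 CPM in chemostat (-0.72 ± 0.22, adjusted p = 0.015), and so did PIC2, with 66.9 and 71.4 CPM in batch and 105 and 116 CPM in chemostat (-0.68 ± 0.14, adjusted p = 0.00134). YHM2 changed by -0.53 ± 0.13 (adjusted p = 0.00356). The 2 phosphate carriers thus changed in opposite directions, MIR1 higher and PIC2 lower in batch. AAC3 had 3682 and 3806 CPM in batch and 3707 and 3423 CPM in chemostat, 2 overlapping ranges, and its difference of 0.07 ± 0.15 did not pass (adjusted p = 0.709). AGC1 had 479 and 451 CPM in batch and 329 and 407 CPM in chemostat and also did not pass (0.34 ± 0.15, adjusted p = 0.0674). AGC1 was called in 6 of 15 other settings: at 0.50 without chemostat replicate 2 (adjusted p = 0.0153), at 0.34 and 0.35 without replicate 1 or 2 of the aerobic label (0.0385 and 0.0373), at 0.36 with RLE scaling and with DESeq2 (0.0499 and 0.0378), and at 0.34 with the mutant pairs crossed, a setting chosen after seeing the data (0.048). Batch and chemostat also differ in pH, which cannot be told apart from the culture mode.

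The calls of MRS3/MRS4, YIA6 and YHM2, at 0.33, -0.72 and -0.53 with all libraries, were lost in some fits without 1 library. Where that leaves 1 library in a compared group, a lost call does not by itself show a changed estimate. MRS3/MRS4 lost its call without any 1 of 5 libraries: it was at 0.36 and 0.32 without batch replicate 1 or 2 (adjusted p = 0.163 and 0.209), at 0.22 without chemostat replicate 1 (0.184), and at 0.33 without replicate 1 or 2 of the micro-aerobic label (0.0759 and 0.0765), which enter through the shared spread. YIA6 was at -0.77 and -0.65 without batch replicate 1 or 2 (adjusted p = 0.065 and 0.112) and at -0.37 without chemostat replicate 2 (0.147). YHM2 was at -0.48 without batch replicate 2 (adjusted p = 0.0686). MRS3/MRS4 also lost its call with upper quartile scaling (0.31, adjusted p = 0.0662) and with only the 2 groups compared (0.33, adjusted p = 0.0587). Of the 16 carriers not called, LEU5 passed at -0.63 without chemostat replicate 2 (adjusted p = 0.0495), and OPAR_001435 and RIM2 at 0.73 and 0.61 without chemostat replicate 1 (0.0132 and 0.0182).

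The third comparison set the mutant chemostat against the wild-type chemostat with the same label, aerobic, and the same glucose. AAC3, MIR1, TPC1, MME1, AGC1, OPAR_002024 and OPAR_000108 were over 2-fold higher in the mutant, and OPAR_004832 was almost 4-fold lower. In all, 15 of 28 carriers rose and 5 fell, beside 31.3% and 29.4% of all tested genes, or 20 called carriers beside 60.7% of genes. Of at least 2-fold were 7 rises and 1 fall, beside 14.9% and 10.3% of all genes. The median log2 change was 0.50 over the carriers and 0.03 over all genes. This comparison shares its chemostat libraries with the second and its aerobic wild-type libraries with the first, so its values are given beside theirs without a measure of likeness.

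AAC3 had 3707 and 3423 CPM in the mutant chemostat and 1072 and 877 CPM in the wild type labelled aerobic, and rose 3.66-fold, a log2 change of 1.87 ± 0.15 (adjusted p = 2.06e-07). MIR1 had 1266 and 1092 CPM in the mutant and 378 and 352 CPM in the wild type, a change of 1.69 ± 0.15 (adjusted p = 4.52e-07). TPC1 had 17.6 and 23.2 CPM against 5.53 and 4.26 CPM and rose by 2.07 ± 0.26 (adjusted p = 1.57e-05). In each of the 3 both mutant libraries lay above both wild-type libraries, a condition of the choice by size of change. MME1, which exports magnesium from mitochondria, had 54.4 and 43.9 CPM in the mutant and 14.9 and 21.5 CPM in the wild type, and changed by 1.43 ± 0.20 (adjusted p = 4.72e-05). AGC1 rose by 1.07 ± 0.15 (adjusted p = 3.84e-05), with 329 and 407 CPM in the mutant and 158 and 193 CPM in the wild type.

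Of the carriers without a homolog, OPAR_002024 had 195 and 283 CPM in the mutant and 48.8 and 57.0 CPM in the wild type (2.17 ± 0.18, adjusted p = 2.59e-07), and OPAR_000108 had 39.6 and 31.5 CPM and 11.1 and 10.6 CPM in the same order (1.72 ± 0.21, adjusted p = 1.09e-05). OPAR_004832 had 102 and 137 CPM in the mutant and 507 and 437 CPM in the wild type, 3.94-fold lower at a log2 change of -1.98 ± 0.16 (adjusted p = 2.20e-07). These groups did not overlap either, again a condition of the choice of these genes.

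The smaller rises were those of SAL1 (0.92), LEU5 (0.91), PET8 (0.88), HEM25 (0.81), YHM2 (0.77), YPR011C (0.72), CTP1 (0.55) and PIC2, which had 105 and 116 CPM in the mutant and 89.8 and 73.5 CPM in the wild type (0.44 ± 0.14, adjusted p = 0.0167). OAC1 (-0.93), YMC1 (-0.91), ORT1 (-0.69) and MRS3/MRS4 (-0.54) fell. Among the 9 nucleotide and cofactor carriers 5 rose and none fell, and the median log2 difference was 0.72. All 9 differences were above 0, beside 2717 of the 5265 genes tested. That of GGC1 was 0.02 ± 0.15, so its sign was not resolved. The NAD+ carrier YIA6 had 19.4 and 29.8 CPM in the mutant and 20.2 and 23.0 CPM in the wild type, which overlapped, and its difference of 0.19 ± 0.22 did not pass (adjusted p = 0.489).

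The calls of PET8, LEU5, HEM25, CTP1 and PIC2 were lost in some fits without 1 library of a compared group. Such fits leave 1 library in that group, so a lost call does not by itself show a changed estimate. With all libraries the log2 changes were 0.88, 0.91, 0.81, 0.55 and 0.44 in this order. Without mutant chemostat replicate 1, PET8 was at 0.32 (adjusted p = 0.445), LEU5 at 0.46 (0.178), HEM25 at 0.50 (0.252) and CTP1 at 0.29 (0.22), and PIC2 was at 0.34 without replicate 2 (0.083). Without aerobic wild-type replicate 1, PET8 was at 1.00 (adjusted p = 0.0909), LEU5 at 0.95 (0.055) and HEM25 at 0.40 (0.287). Without aerobic wild-type replicate 2, PET8 was at 0.74 (adjusted p = 0.186), LEU5 at 0.85 (0.0764), CTP1 at 0.31 (0.214) and PIC2 at 0.28 (0.132), while HEM25 kept its call at 1.42 (0.00551). Fitted with only the 2 groups compared, PIC2 was at 0.44 (adjusted p = 0.0714). Of the 8 carriers not called, OPAR_001435 and RIM2 passed at 0.64 and 0.57 without mutant chemostat replicate 2 (adjusted p = 0.0155 and 0.0176), and RIM2, FLX1 and YFR045W at 0.55, 0.56 and 0.44 with upper quartile scaling (0.0209, 0.0449 and 0.0126).

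**Figure D4:**
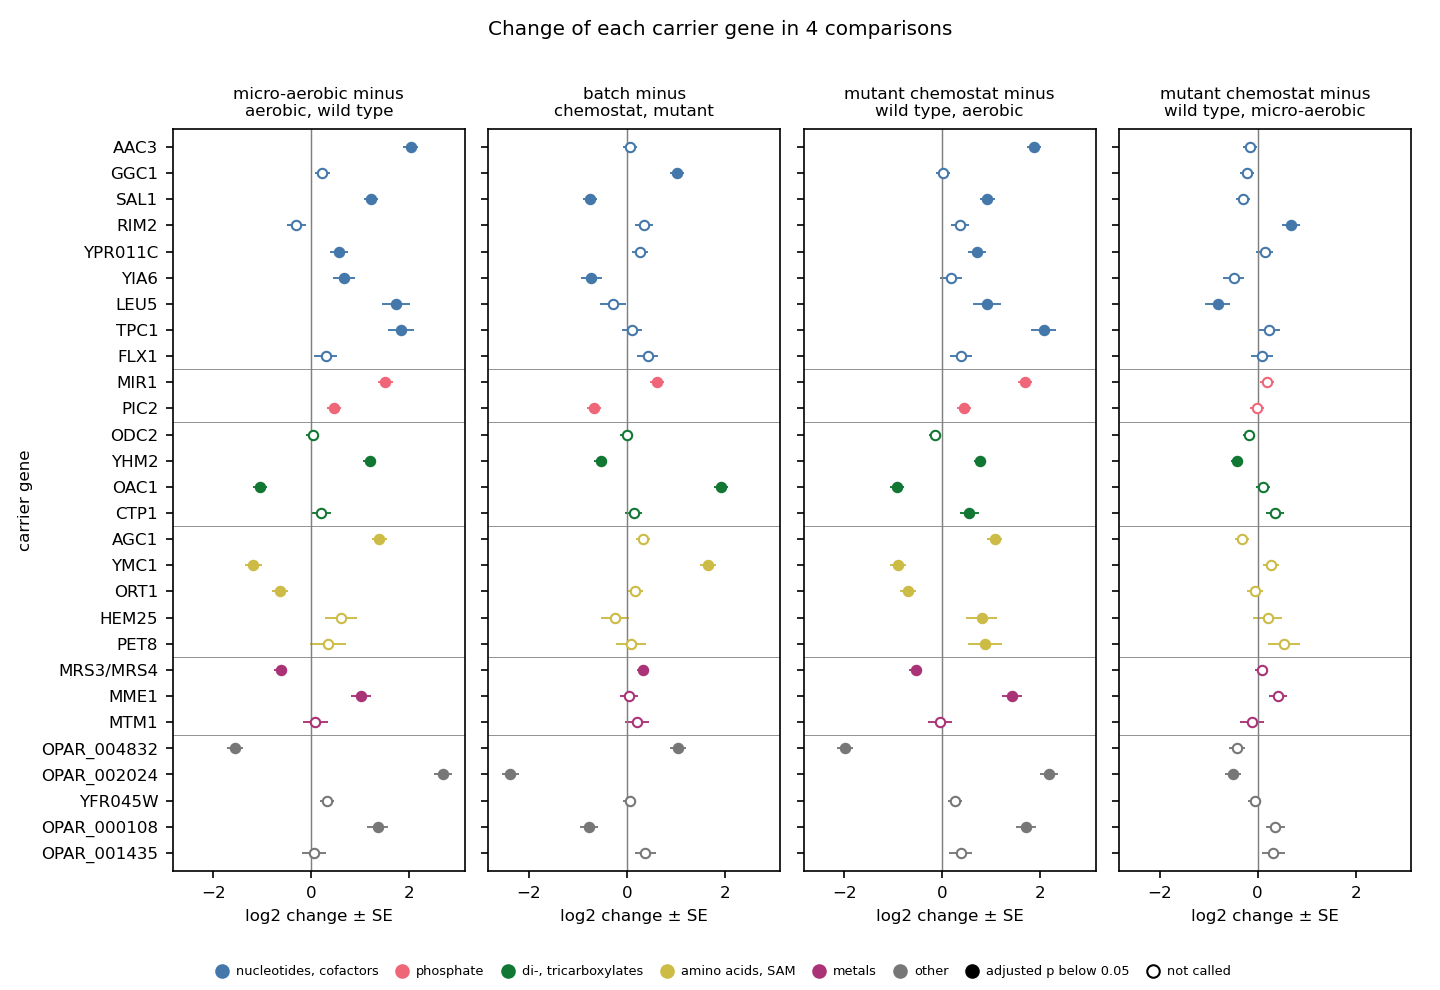
Log2 change ± SE (horizontal axes) of the 28 tested carriers (rows, coloured by role) in the 4 comparisons, with filled points for an adjusted p below 0.05 and open points for the rest. From left to right the panels hold 18, 12, 20 and 4 filled points, the last 4 all within 1 log2 unit of 0.

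The fourth comparison set the mutant chemostat against the wild type labelled micro-aerobic. Of the 28 carriers 1 rose and 3 fell, beside 13.7% and 13.4% of all tested genes (4 called, beside 27.1%), and no carrier changed by 2-fold or more, which 3.11% of all genes did upwards and 1.9% downwards. The median log2 change was 0.04 over the carriers and 0.01 over all genes. AAC3 had 3707 and 3423 CPM in the mutant chemostat and 4089 and 3879.8 CPM in the libraries labelled micro-aerobic, a difference of -0.16 ± 0.15 that did not pass (adjusted p = 0.433). MIR1, with 1266 and 1092 CPM in the mutant and 1129 and 949 CPM in the wild type, overlapped between the groups (0.18 ± 0.14, adjusted p = 0.36). PIC2 (-0.02 ± 0.14) and YIA6 (-0.49 ± 0.22, adjusted p = 0.109) did not pass either. Without mutant chemostat replicate 2, YIA6 passed at -0.82 (adjusted p = 0.0105).

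RIM2, which imports pyrimidine nucleotides, had 67.7 and 48.7 CPM in the mutant chemostat and 37.3 and 35.5 CPM in the libraries labelled micro-aerobic, and rose by 0.68 ± 0.19 (adjusted p = 0.0206). LEU5 had 27.4 and 15.8 CPM against 30.8 and 45.0 CPM (-0.81 ± 0.26, adjusted p = 0.0348). OPAR_002024 had 195 and 283 CPM against 318 and 360.1 CPM (-0.50 ± 0.17, adjusted p = 0.0396). YHM2 had 426 and 391 CPM against 564 and 532 CPM (-0.42 ± 0.13, adjusted p = 0.0281). None of these 4 pairs of groups overlapped, which was a condition of the choice of these genes. The replicates differed among themselves by up to 1.73-fold, for LEU5 in the mutant chemostat.

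All 4 calls were lost in at least 1 fit without a single library. RIM2 was at 0.71 and 0.64 without replicate 1 or 2 of the micro-aerobic label (adjusted p = 0.0815 and 0.169) and at 0.42 without mutant chemostat replicate 1 (0.173). LEU5 was at -0.51 and -0.46 without replicate 2 of the micro-aerobic label or of the mutant chemostat (adjusted p = 0.338 and 0.164), and at -1.26 (0.0146) without mutant chemostat replicate 1. OPAR_002024 was at -0.59 and -0.41 without replicate 1 or 2 of the micro-aerobic label (adjusted p = 0.0834 and 0.265), at -0.26 and -0.79 without mutant chemostat replicate 1 or 2 (0.259 and 0.00254), and at -0.51 without either batch library (0.0617). YHM2 was at -0.38 and -0.47 without replicate 1 or 2 of the micro-aerobic label (adjusted p = 0.151 and 0.144), at -0.43 without either batch library (0.0657 and 0.0659) and at -0.35 without mutant chemostat replicate 2 (0.0604). With upper quartile scaling no carrier fell and 1 rose, and without mutant chemostat replicate 2 the number that rose was 6. OPAR_002024 also lost its call with only the 2 groups compared (-0.51, adjusted p = 0.0594). Of the carriers not called, 8 passed without mutant chemostat replicate 2: PET8 at 0.96, OPAR_001435 at 0.62, CTP1 at 0.59, MME1 at 0.57 and OPAR_000108 at 0.53, and, lower in the mutant, YIA6, OPAR_004832 at -0.64 and AGC1 at -0.47, with adjusted p-values of 0.0093 to 0.0443. OPAR_004832 also passed in DESeq2 (-0.42, adjusted p = 0.0492).

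The first and second comparisons share no library. Of the 13 carriers that rose under the micro-aerobic label, 6 fell in the mutant batch (OPAR_002024, OPAR_000108, SAL1, YIA6, YHM2 and PIC2), 1 rose there (MIR1) and 6 were not called (AAC3, TPC1, LEU5, AGC1, MME1 and YPR011C). Of the 5 that fell under the micro-aerobic label, 4 rose in the mutant batch (OAC1, YMC1, OPAR_004832 and MRS3/MRS4), and ORT1 was not called. GGC1 was called only in the second of these comparisons, and 9 carriers in neither. These cross-counts were not made over all genes tested, so they cannot be read as a trait of carriers. Across the 28 carriers the log2 changes of the comparisons had a Pearson r of -0.70 and a Spearman rho of -0.60, and 15 of the 28 (53.6%) were of opposite sign. Across all 5265 genes tested r was -0.51 and rho -0.41, and 64.5% of genes were of opposite sign. These are values across genes, which are not independent replicates, and the same 8 libraries gave each gene its spread.

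**Figure D5:**
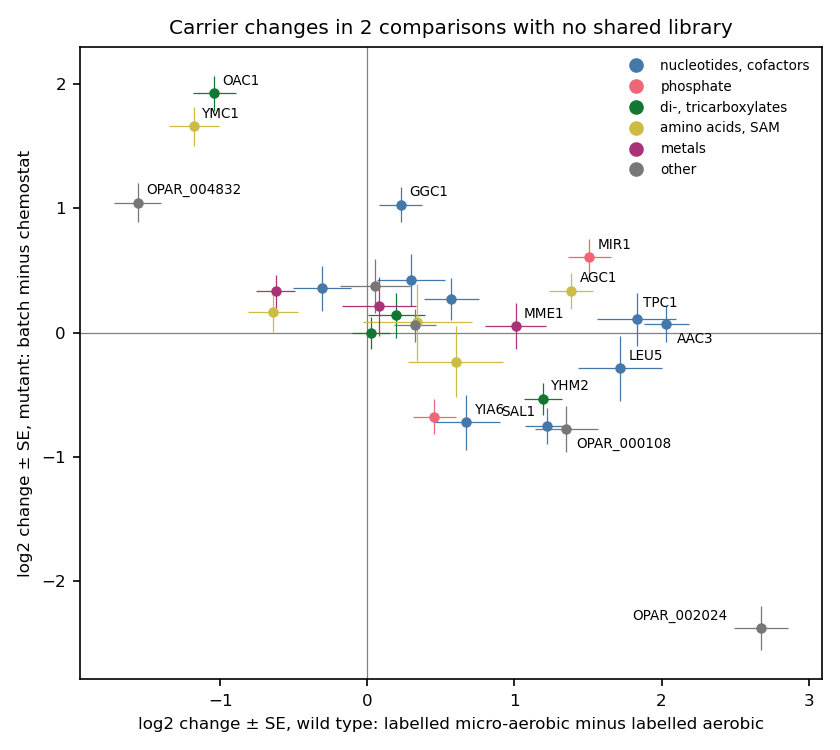
Log2 change ± SE of each carrier under the micro-aerobic minus the aerobic label in the wild type (horizontal axis) and in batch minus chemostat in the mutant (vertical axis), coloured by role. OAC1, YMC1 and OPAR_004832 lie at the upper left, OPAR_002024 farthest to the lower right, and AAC3 and TPC1 far to the right near 0 on the vertical axis.

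Carriers are made in the cytosol and reach the inner membrane through the TOM complex, the small TIM chaperones and the TIM22 complex, and 12 genes of this route were found in the tables. In the mutant batch 10 of the 12 rose and none fell, beside 24.5% and 26.8% of all tested genes, with a median log2 change of 0.53, beside -0.02 over all genes. Among the carriers 6 of 28 rose, and the difference between these counts was not tested. The largest were those of TIM18 and TIM8, a part of the TIM22 complex and a small TIM, and of the receptor TOM71. TIM18 had 74.8 and 72.7 CPM in batch and 38.5 and 36.9 CPM in chemostat (0.97 ± 0.17, adjusted p = 3.45e-04). TIM8 had 64.4 and 58.9 CPM and 30.4 and 33.4 CPM (0.95 ± 0.21, adjusted p = 0.0021) in the same order, and TOM71 changed by 0.71 ± 0.16 (adjusted p = 0.00248). None of the 3 overlapped between batch and chemostat, but they were chosen as the largest called changes, so this adds no support. The TIM22 gene itself was one of the 2 not called, at -0.27 ± 0.22.

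In the other comparisons 2, 2 and 3 of the 12 import genes were called, beside 45.5%, 60.7% and 27.1% of all tested genes. Under the micro-aerobic against the aerobic label TOM20 rose (0.36 ± 0.14, adjusted p = 0.0459) and TOM7 fell (-0.74 ± 0.18, adjusted p = 0.00493), and the median was 0.00, beside 0.40 for the carriers. In the mutant chemostat against the wild type labelled aerobic TOM20 rose (0.58 ± 0.14) and TOM22 fell (-0.62 ± 0.16), with a median of -0.01. Against the micro-aerobic label TOM7 rose (1.07 ± 0.18) in the mutant chemostat, and TOM71 (-0.69 ± 0.16) and TOM22 (-0.57 ± 0.15) fell. The call of TOM20 between the wild-type groups was lost with RLE scaling (0.33, adjusted p = 0.0646), with DESeq2, without the count filter, with only the 2 groups compared, and without any 1 of 5 libraries: it was at 0.35 and 0.37 without replicate 1 or 2 of the micro-aerobic label, at 0.24 without replicate 2 of the aerobic label and at 0.35 without either batch library. TOM7 was at -0.37 there without replicate 1 of the aerobic label (adjusted p = 0.0782). In the mutant chemostat against the micro-aerobic label TOM22 and TOM71 were at -0.47 and -0.65 without replicate 2 of the micro-aerobic label (adjusted p = 0.195 and 0.103) and at -0.58 and -0.47 without mutant chemostat replicate 1 (0.087 and 0.0797). The median of the import genes in both comparisons with the aerobic label was 0.10 and 0.17 with upper quartile scaling and -0.02 and -0.05 with RLE scaling.

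Of 10 genes for other routes across mitochondrial membranes, 6 rose and none fell under the micro-aerobic label, beside 23.2% and 22.3% of all tested genes, with a median log2 change of 0.76, beside 0.02 over all genes. MPC1, a subunit of the pyruvate carrier, had 61.6 and 61.8 CPM under the micro-aerobic label and 18.5 and 14.8 CPM under the aerobic label (1.89 ± 0.19, adjusted p = 2.27e-06). POR1, the outer membrane porin, had 1466 and 1365 CPM and 624 and 582 CPM in the same order (1.23 ± 0.17, adjusted p = 5.77e-05), and MMT2, tied to iron, changed by 1.38 ± 0.40 (adjusted p = 0.0123). Both libraries labelled micro-aerobic lay above both labelled aerobic for all 3, which were chosen as the largest called changes, so this adds no support. MMT2 was at 1.17 without replicate 1 of the micro-aerobic label (adjusted p = 0.0899) and at 1.08 without replicate 1 of the aerobic label (0.106).

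In the mutant batch against chemostat 2 of the 10 rose and 5 fell, beside 24.5% and 26.8% of all tested genes. Those that fell included MMT2 (-1.81 ± 0.33, adjusted p = 4.82e-04) and POR1, with 811 and 921 CPM in batch and 1965 and 1352 CPM in chemostat (-0.94 ± 0.17, adjusted p = 4.85e-04). FSF1, of the sideroflexin family, rose (0.85 ± 0.15, adjusted p = 3.34e-04). In the mutant chemostat against the wild type labelled aerobic 7 rose and none fell, beside 31.3% and 29.4% of all tested genes, led by MMT2 (2.44 ± 0.37), MPC1 (2.19 ± 0.19) and MPC3 (1.86 ± 0.17). The median was 0.80, beside 0.03 over all genes. Against the micro-aerobic label MMT2 (1.06 ± 0.33) and MPC3 (0.79 ± 0.16) rose and none fell, beside 13.7% and 13.4% of all tested genes. These 2 calls were lost in some fits that left 1 library in a compared group. MMT2 was at 1.28 and 0.87 without replicate 1 or 2 of the micro-aerobic label and at 0.51 without mutant chemostat replicate 1. MPC3 was at 0.76 without replicate 2 of the micro-aerobic label. MMT2 was low, at 3.05 to 30.2 CPM, and its 2 mutant chemostat libraries differed almost 2-fold, at 30.2 and 15.6 CPM.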

How the data were processed

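Polyadenylated RNA of 8 bioreactor samples was sequenced, 2 per group, with a stranded TruSeq kit per the labels' protocols. Groups came from the labels, and the series text calls the replicates biological without saying more, so which steps their spread covers is not known. Each p-value rests on a spread estimated from all 8 libraries together, with information shared across genes, and not on 1 group alone. Groups whose replicates agree unequally thus share 1 spread. The authors deposited counts per gene without normalization. Per the file headers these are read-pair counts from featureCounts on genes, without a strand or overlap setting, so reads in overlapping genes, on either strand, were left unassigned by default. Tools named in the submitters' processing notes are featureCounts 1.6.0, edgeR 3.28.1, SAMtools 1.3.1 and Bowtie 1.2.1.1. Coordinates are those of the deposited annotation, which names the strain DL-1, and for its build no version was found in the sources used here. Gene length came from the count table, homologs from the authors' deposited tables, and the 27 members with a locus tag all matched the RefSeq table of assembly Hansenula_2, used for names only. A further 4 library columns beside the counts were left out, as samples of another study.

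Counts were tested with edgeR 4.0.16 (R 4.3.3) in 1 fit of all 8 libraries with a mean per group: filterByExpr (5265 genes kept), TMM scaling (factors 0.859 to 1.12), and the quasi-likelihood F test, two-sided, with p-values adjusted by Benjamini-Hochberg over all genes tested and calls at an adjusted p below 0.05. The SE is the log2 change divided by the square root of F. The fit left 4 residual degrees of freedom at a common biological coefficient of variation of 0.118. Replicates differed beyond counting noise, with a chi-square over its degrees of freedom of 5.15 for mutant batch, 38.3 for mutant chemostat, 6.75 under the micro-aerobic and 24.8 under the aerobic label. Alternatives were RLE and upper quartile scaling, no count filter, DESeq2 1.42.0, only the 2 groups compared, each library left out, and a replicate block. The scripts were also run on simulated counts in which all groups had the same spread per gene, unlike these libraries. No recovery rate is given here, and no support is drawn from that run.

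The members, the lists and the fourth comparison were chosen with earlier results of these data known. Every carrier could be named. Values per library are given for up to 8 carriers per comparison with the largest called change, at least 10 CPM in a group and no overlap, for the ADP/ATP, phosphate and NAD+ carriers, and for the highest carrier per kilobase. For carriers chosen by size of change, absence of overlap was a condition and adds no support. The share of all tested genes without overlap was not counted. Of the non-members, up to 3 called genes per list and comparison are named, those with the largest change. Absence of overlap was not a condition for them, but after a choice by size of change it adds no support. TIM22, and carriers given per library beyond this rule, such as ODC2, were chosen after their values were seen. The labels were checked on GUT2, NDE1, HEM13 and ERG11.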

Additional observations from a re-analysis of the deposited data

How the results depend on the processing

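Of the 54 called carrier changes, 38 kept their direction and call in every setting tried: 14 of 18 under the micro-aerobic against the aerobic label, 9 of 12 in mutant batch against chemostat, 15 of 20 in the mutant chemostat against the aerobic label and 0 of 4 against the micro-aerobic label. Over 726 alternative values 672 kept both, 54 lost the call and none reversed. Of the 58 carrier changes that were not called, 18 were called in at least 1 other setting, 8 of them without mutant chemostat replicate 2 in the fourth comparison. Of 21 named changes of import and other transport genes, 14 kept their call in every setting. The count of 1 carrier higher in the mutant chemostat than under the micro-aerobic label ran between 0 and 6 with each library left out in turn, and the count of 3 lower between 0 and 4. Upper quartile scaling took the count of carriers lower to 0. It moved the median of all genes by 0.18 in the mutant chemostat against the aerobic label and the share of called genes that were higher there to 63.5% of all genes and 78.3% of carriers, against 51.6% and 75% with TMM. Against the micro-aerobic label that share became 65.7% of genes and 100% of carriers, against 50.7% and 25%. The cause was not tested. Over all genes, 722 rose and 703 fell in the mutant chemostat against the micro-aerobic label, but 1107 and 999 without mutant chemostat replicate 2, 218 and 221 without its replicate 1, and 316 and 353 or 134 and 145 without replicate 1 or 2 of the micro-aerobic label. Under the micro-aerobic against the aerobic label 1222 rose and 1176 fell, but 817 and 776 without micro-aerobic replicate 1. In mutant batch against chemostat 1292 rose and 1412 fell, but 869 and 875 without batch replicate 1 and 947 and 933 without batch replicate 2.

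The mutant samples share number codes in their titles, and whether these mark pairs is not stated. Same-numbered samples did not deviate together across genes (correlation -0.25), but with only 2 pairs this cannot decide it. The main fit did not take the codes as pairs. With the replicate block 5 carriers rose and 6 fell in batch against chemostat, MRS3/MRS4 losing its call at 0.34 (adjusted p = 0.0672), over all genes 1231 rose and 1338 fell, and 23 carriers differed among the groups. With the pairs crossed, a setting chosen after seeing the data, 7 rose and 6 fell, over all genes 1361 and 1445, and 20 differed among the groups. With 2 libraries per group, small changes of carriers with few counts are those this depth resolves least.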

Other observations

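The agreement of replicates differed between groups and between carriers. In the mutant batch the higher library exceeded the lower by at most 1.15-fold for any of the 28 carriers, with a median of 1.05. The median was 1.21 in the mutant chemostat, 1.06 under the micro-aerobic label and 1.16 under the aerobic label. Ratios above 1.5 occurred for 0, 4, 2 and 1 carriers in these groups. In the mutant chemostat they were PET8 (18.0 and 9.20 CPM, 1.96-fold), LEU5 (27.4 and 15.8 CPM, 1.73-fold), OPAR_001435 (27.6 and 17.8 CPM, 1.56-fold) and YIA6 (19.4 and 29.8 CPM, 1.54-fold). PET8, LEU5 and OPAR_001435 were higher in replicate 1 and YIA6 in replicate 2. Under the micro-aerobic label they were MTM1 (14.4 and 24.1 CPM, 1.68-fold) and PET8 (11.6 and 7.03 CPM, 1.66-fold), and under the aerobic label HEM25 (6.48 and 13.4 CPM, 2.07-fold). These genes are among the least expressed of the family, and the share of the spread due to counting was not tested. OPAR_001435, a carrier without a homolog, differed among the 4 groups (adjusted p = 0.0224 in edgeR) while none of its 4 pairwise comparisons passed with all libraries. Its highest mean, in the mutant batch, was 1.68-fold its lowest, under the aerobic label, and these groups were not compared with each other. It had 28.9 and 29.9 CPM in batch and 27.6 and 17.8 in chemostat for the mutant, 18.0 and 18.2 under the micro-aerobic label and 17.5 and 17.4 under the aerobic label. It passed without 1 mutant chemostat library in 3 of them: at 0.73 in batch against chemostat without replicate 1, and at 0.64 and 0.62 in the chemostat against the aerobic and the micro-aerobic label without replicate 2 (adjusted p = 0.0132, 0.0155 and 0.0286), against 0.38, 0.38 and 0.32 with all libraries. FLX1, the FAD carrier, also passed only the test over all groups with TMM scaling (adjusted p = 0.0236). It had 20.2 and 21.0, 16.5 and 14.2, 14.2 and 14.7 and 10.5 and 12.9 CPM in the same order. Its highest and lowest means lay in the same groups as those of OPAR_001435, 1.76-fold apart.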
